A study of Mus musculus with 50 samples.

Results

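The nuclear genome encodes the whole of respiratory complex II and most subunits of complexes III, IV and V, and 46 such genes were followed here through the left ventricle of LARP6 transgenic and wild-type mice. A gene was a member when its name was Sdha, Sdhb, Sdhc, Sdhd or Cyc1, or began with Uqcr, Cox4 to Cox8 or Atp5 and was not marked as a pseudogene by "-ps", and when its FPKM (fragments of a gene scaled to its transcript length and to the depth of the library) was at least 1 in 5 or more libraries. Of 48 genes with such a name, 46 passed, and Cox7b2 and Cox6b2 did not. The members were 4 genes of complex II, 9 of complex III, 16 of complex IV and 17 of complex V, out of 11628 genes tested and 35717 in the table. Cox6c2 is a member by its name, though the annotation gives it as a processed pseudogene.

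All mice were 40 weeks old, on the C57BL/6J background, and were either transgenic for Larp6, overexpressed in cardiomyocytes (Tg), or littermates without the transgene (WT). LARP6 binds RNA and is known for holding collagen mRNAs. Each mouse received saline or angiotensin II (Ang II) at 1000 ng per kg per minute for 21 days. This hormone narrows blood vessels and so raises the load on the heart. The groups were WT saline with 11 libraries, WT Ang II with 14, Tg saline with 12 and Tg Ang II with 13, with both sexes in each. The promoter that drives the transgene and the number of founder lines are not given in the sources used here.

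Complexes II, III and IV are enzymes of the inner mitochondrial membrane that pass electrons from succinate and ubiquinol to oxygen, and complexes III and IV pump protons as they do so. Complex V, the ATP synthase, lets the protons flow back through a rotating ring and makes ATP from ADP. The heart beats on this ATP, and its cardiomyocytes are among the cells richest in mitochondria. Several complex IV subunits come in a widespread form and a form made in striated muscle (heart and skeletal muscle), and the balance between them is known to shift from the fetal to the adult heart.

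Total counts were 53877439 to 91579342 per library. Larp6, the gene carried by the transgene, had a mean of 33.4 scaled FPKM in WT saline and 1007 in Tg saline hearts (an FPKM divided by the library's median-of-ratios factor), and 107 in WT Ang II and 953 in Tg Ang II hearts. In the WT Ang II males, replicate 5 (library 329) had Larp6 at the Tg level (1004 scaled FPKM), against its label, and the WT Ang II mean without it was 38.2. The column letters of that library and of replicate 6 of the males of Tg Ang II (library 847) name the other genotype than the labels. In library 847 Larp6 was at 1119, at the level of its Tg label. Both were kept under their labels. Library 965, replicate 6 of the Tg saline males, stood apart in these genes: it was the highest of all 50 libraries in 31 of the 46 members. Results that rest on these 3 libraries are given with and without them. All 10 cardiomyocyte markers examined were detected, as the label of left ventricle requires, with a summed level of 14901 to 20140 scaled FPKM. In bulk tissue, fewer cells of a type and less RNA per cell cannot be told apart.

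Per unit of transcript length, the subunits of the ATP synthase head led the order of levels in WT saline hearts. Atp5a1, the alpha subunit, stood at a median of 959 scaled FPKM (846 to 987), and Atp5b, the catalytic beta subunit, at 784 (754 to 811). These ranges did not overlap. Next were Cox6a2, the striated muscle form of a complex IV subunit, at 608 (559 to 783), and Cox4i1, the usual form of subunit 4, at 404 (342 to 480). Atp5c1, the gamma shaft of the ATP synthase, followed at 324 (320 to 357), and its range overlapped that of Cox4i1 only at its top. Uqcrfs1, the Rieske iron-sulphur protein of complex III, was at 289 and Sdha, the flavoprotein that oxidises succinate, at 265. The order ended with Cox4i2, a form of subunit 4 known from lung and low oxygen, at 5.22 (3.87 to 6.93) and Cox6c2 at 2.63 (1.25 to 4.16), whose ranges overlapped. The spread between animals was small for the long transcripts of the ATP synthase head, with a coefficient of variation of 2.18% for Atp5b and 4.32% for Atp5a1, and its median over the 46 members was 12.0%. In Tg saline hearts that median was 26.1%, and it was 10.6% without library 965.

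Under saline, 13 members were lower and 5 higher in Tg than in WT hearts at an adjusted p under 0.05 (edgeR's quasi-likelihood test, Benjamini-Hochberg adjustment over 11628 genes). Of all genes tested, 20.2% were lower and 20.4% higher in this comparison, so the share of members called lower was a little above the background and that called higher below it. The falls were small, and 12 of the 13 lay in complexes II, III and V. The rises were led by subunits of short transcripts, with Cox8a of complex IV far ahead of the others. The median over the 46 members was a log2 fold change of 0.00 with library 965 and -0.12 without it, beside 0.00 over all genes, and without that library 16 members were lower and 3 higher. The count of higher members was also 3 without replicate 4 of the WT saline females or replicate 5 of the WT saline males. When libraries were scaled by their total count alone, the median of all genes moved to 0.14 and that of the members to 0.13, and 12 members were called higher and 6 lower. Here and below, shares of all genes called are given only for the main fit, with all libraries and median-of-ratios scaling. Counts of members in other settings therefore have no background beside them. All 18 called members had the same sign in females and males. The calls rest on the mean over both sexes, which favours members whose sexes go the same way. Every member not called was negative in females and positive in males, the sex of library 965. Atp5k was at -0.17 in females and 0.86 in males, for example, and Cox7a1 at -0.42 and 0.36. Values by sex without library 965 were not computed.

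**Figure D1:**
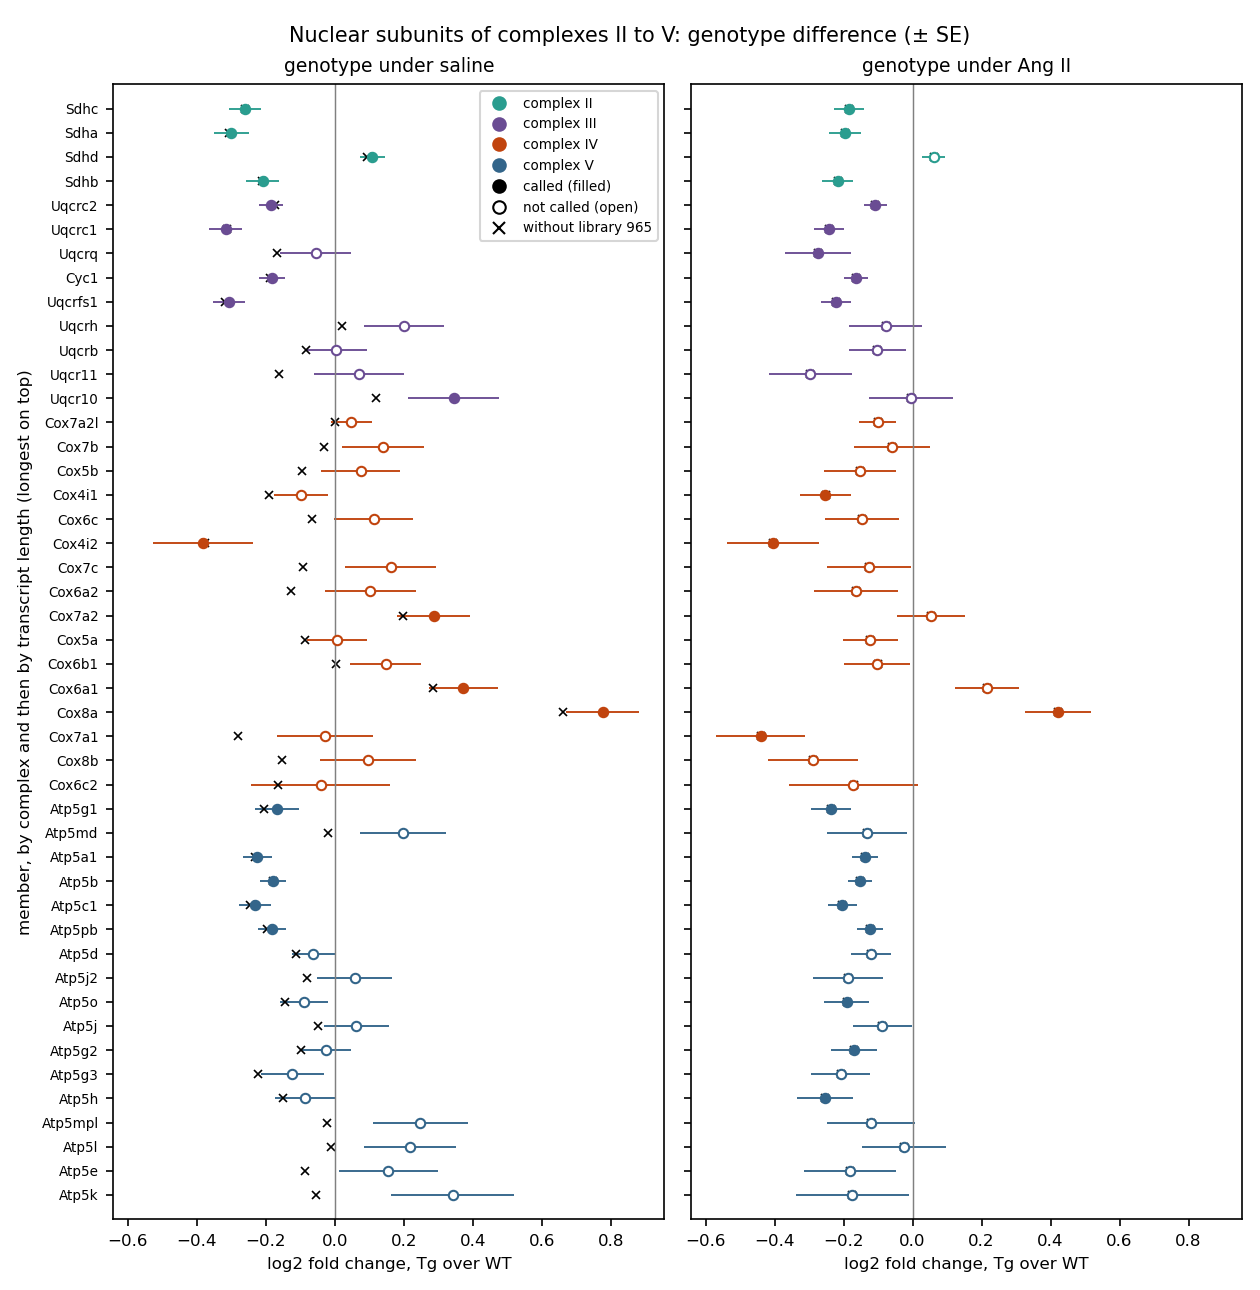
Log2 fold change of Tg over WT (± SE) for the 46 members under saline and under Ang II, ordered by complex and by transcript length, with filled points for called members and crosses for the value without library 965. Under saline, Cox8a stands at 0.78 and Uqcrc1 at -0.32, and the crosses of many short members lie to the left of their points.

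Complex II is the enzyme that links the citric acid cycle to the electron chain. In it, 3 of 4 subunits were lower in Tg saline hearts and 1 was higher, beside 20.2% and 20.4% of all genes. The median log2 fold change was -0.23 with library 965 and -0.24 without it. Sdha (ENSMUSG00000021577, chromosome 13, 74322254 to 74350280 on the minus strand, GRCm38) ranged over 211, 265 and 273 scaled FPKM (lowest, median and highest) in WT saline and 191, 211 and 228 in Tg saline. All 12 Tg libraries lay below the WT median, and 6 lay below every WT library. The log2 fold change was -0.30 ± 0.05 (SE, adjusted p = 7.1e-06). Sdhc, a membrane anchor that helps bind ubiquinone, went from 85.5, 95.3 and 105 to 67.4, 82.3 and 85.9, with 11 of 12 Tg libraries below every WT library (-0.26 ± 0.05, adjusted p = 2.1e-05). Sdhb, the iron-sulphur subunit, went from 165, 176 and 200 to 133, 154 and 177 (-0.21 ± 0.05, adjusted p = 0.00042). Sdhd, the other membrane anchor, moved the other way: its levels were 192, 202 and 225 in WT and 206, 216 and 245 in Tg, and all 12 Tg libraries were above the WT median (0.11 ± 0.04, adjusted p = 0.017). Library 965 was not the highest of all libraries in any of these 4 genes. The call on Sdhb ended under total count scaling (-0.08), and the call on Sdhd ended without the filter on low values (adjusted p = 0.064) and with a block for runs of neighbouring library numbers (0.08, adjusted p = 0.11).

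Complex III takes electrons from ubiquinol to cytochrome c. In it, 4 of 9 subunits were lower in Tg saline hearts and 1 was higher, beside 20.2% and 20.4% of all genes. The 4 are the core protein Uqcrc1, its partner Uqcrc2, the Rieske protein Uqcrfs1 and cytochrome c1 (Cyc1), the last pair of which carry electrons. Uqcrc1 (ENSMUSG00000025651, chromosome 9, 108936633 to 108949623 on the plus strand) was at 169, 180 and 193 scaled FPKM in WT and 124, 147 and 169 in Tg, with 11 of 12 Tg libraries below every WT library (-0.32 ± 0.05, adjusted p = 7.2e-07). Uqcrfs1 was at 268, 289 and 325 in WT and 202, 238 and 284 in Tg, and 10 of 12 Tg libraries were below every WT library (-0.31 ± 0.05, adjusted p = 8.1e-07). Uqcrc2 (-0.19 ± 0.04) and Cyc1 (-0.18 ± 0.04) fell less. Their calls ended under total count scaling, with values of -0.05 for each. Uqcr10, a small subunit, was called higher at 0.34 ± 0.13 (adjusted p = 0.033), but its levels overlapped widely, at 73.5, 97.4 and 110 in WT and 76.9, 104 and 337 in Tg. The highest of these is library 965, without which the value was 0.12 (adjusted p = 0.25). Its call also ended without replicates 1 and 4 of the Tg saline females, replicate 4 of the WT saline females and replicates 4 and 5 of the WT saline males, each left out alone, at 0.31 to 0.32. The other small subunits, Uqcr11, Uqcrb, Uqcrh and Uqcrq, had values from -0.06 to 0.20 that did not pass the test. The median of the 9 was -0.06, or -0.17 without library 965 and 0.07 under total count scaling.

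In complex V, 5 of 17 subunits were lower in Tg saline hearts and none was higher, beside 20.2% and 20.4% of all genes. The 5 were Atp5a1, Atp5b and Atp5c1 of the catalytic head and shaft, Atp5pb of the stalk that holds the head still, and Atp5g1, which encodes the c subunit of the rotating ring. Atp5b (ENSMUSG00000025393, chromosome 10, 128083273 to 128090391 on the plus strand) was at 754, 784 and 811 scaled FPKM in WT and 614, 698 and 735 in Tg, so the groups did not overlap (-0.18 ± 0.04, adjusted p = 0.00012). Atp5c1 did not overlap either, at 320, 324 and 357 in WT and 246, 285 and 317 in Tg (-0.23 ± 0.05, adjusted p = 6.2e-05). Atp5a1 went from 846, 959 and 987 to 728, 802 and 879 (-0.22 ± 0.04, adjusted p = 2.3e-05). Atp5pb went from 145, 153 and 165 to 123, 136 and 151 (-0.18 ± 0.04, adjusted p = 0.0003). Of these, Atp5a1 and Atp5c1 kept their calls under every scaling tried, and those of Atp5b (-0.04) and Atp5pb (-0.05) ended under total count scaling. The fall of Atp5g1 was small (-0.17 ± 0.06, adjusted p = 0.032), and its call ended on leaving out any of 8 libraries alone, with values of -0.16 to -0.14: replicates 2 and 5 of the Tg saline males, replicates 2 and 5 of the Tg saline females, replicate 2 of the WT saline males and replicates 1, 2 and 5 of the WT saline females. The 17 members ran from -0.23 to 0.34 with a median of -0.06, which was 0.07 under total count scaling. Without library 965 they ran from -0.25 to -0.01, and none of the 17 had a positive value.

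**Figure D2:**
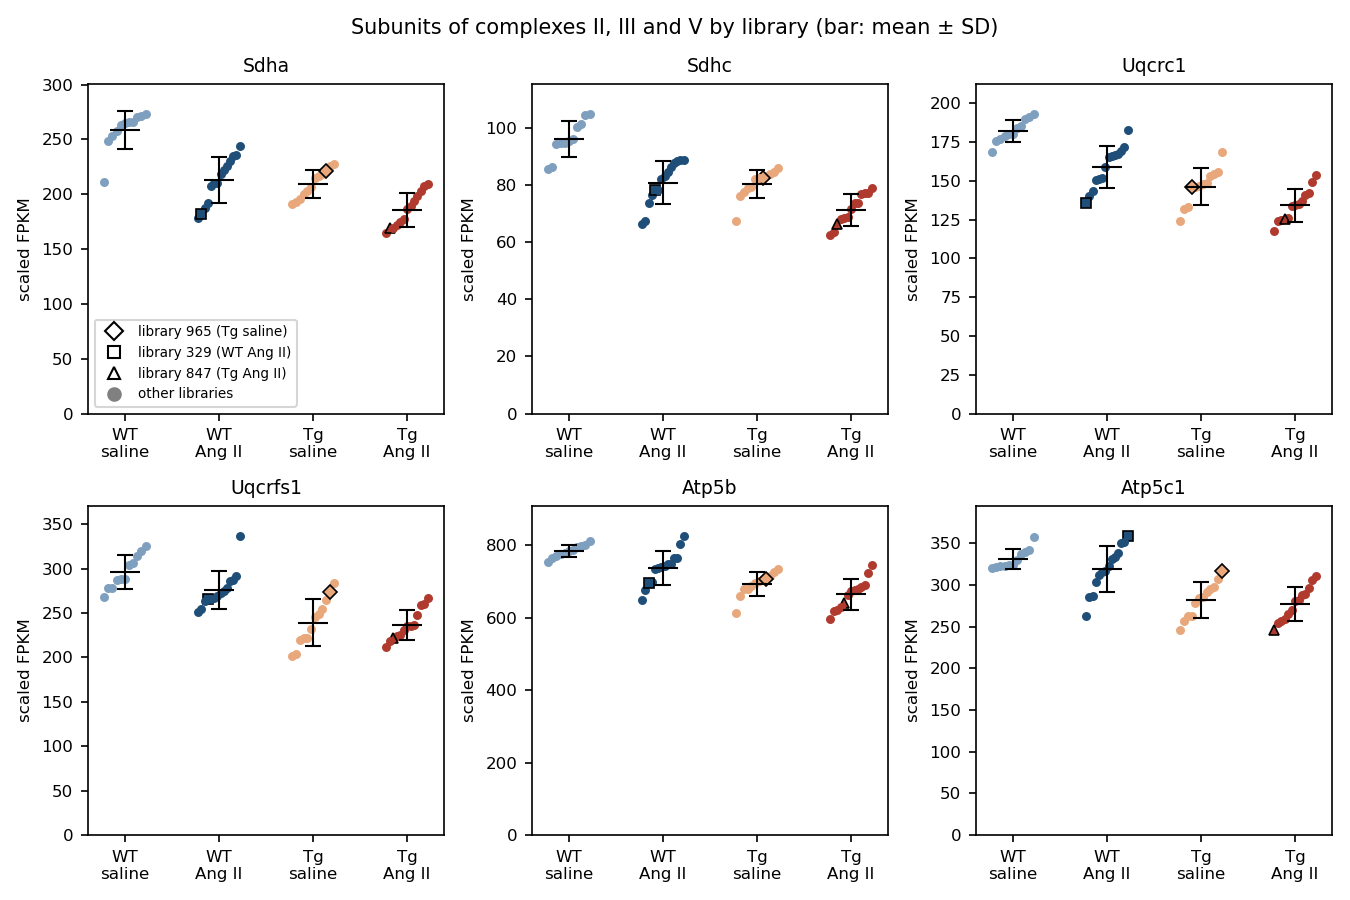
Scaled FPKM in every library for Sdha and Sdhc (complex II), Uqcrc1 and Uqcrfs1 (complex III) and Atp5b and Atp5c1 (complex V) in the 4 groups, with the mean ± SD as bars and libraries 965, 329 and 847 marked. The WT saline mean is the highest of the 4 in each panel, and for Atp5b the lowest of them, at 754, is above the highest Tg saline library, at 735.

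In complex IV, cytochrome c oxidase, 3 of 16 members were higher in Tg saline hearts and 1 was lower. The median was 0.10 with 12 members positive, and without library 965 it was -0.09 with 4 positive, 2 called higher and 3 lower. Under total count scaling the median was 0.22, with 5 higher and 0 lower in edgeR. All 3 that rose, Cox8a, Cox6a1 and Cox7a2, are the widespread forms of subunits that have a striated muscle partner. Cox8a (ENSMUSG00000035885, chromosome 19, 7215153 to 7217616 on the minus strand) encodes the widespread form of the smallest subunit. It was at 33.5, 43.7 and 53.6 scaled FPKM in WT saline and 56.5, 69.1 and 134 in Tg saline, so every Tg library was above every WT library. The log2 fold change was 0.78 ± 0.11 (1.71-fold, adjusted p = 1.1e-07), and it was 0.66 without library 965. Cox8a was 1 of 3 members whose groups did not overlap, with Atp5b and Atp5c1, and the same 3 did not overlap without library 965. Of all tested genes, 2.65% had every Tg saline library above every WT saline library and 1.43% had every one below, while edgeR called 20.4% higher and 20.2% lower. Cox6a1 went from 21.8, 27.8 and 35.0 to 27.4, 34.8 and 60.9, with 11 of 12 Tg libraries above the WT median (0.37 ± 0.10, adjusted p = 0.0027, and 0.28 without library 965). Cox7a2 went from 62.0, 82.0 and 116 to 66.9, 103 and 175, with 11 of 12 above the WT median (0.29 ± 0.11, adjusted p = 0.028). Its call ended without library 965 (0.20, adjusted p = 0.10) and without replicates 2 and 4 of the WT saline females or replicate 5 of the WT saline males, each alone, at 0.25 to 0.27.

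The striated muscle forms Cox6a2, Cox7a1 and Cox8b did not pass the test under saline with all libraries, and Cox6a2 and Cox8b changed sign when library 965 was left out. With it the values of the 3 genes were 0.10, -0.03 and 0.10, and without it -0.13, -0.28 and -0.15, where Cox7a1 was called lower (adjusted p = 0.005). Cox7a1 was also positive under total count scaling, at 0.09. Cox7a1 was at 98.8, 111 and 132 in WT and 73.5, 94.7 and 359 in Tg, where the highest is library 965, the only Tg library above every WT library, and 7 of 12 were below every WT library. Cox4i1 was at -0.10, or -0.19 without library 965 (adjusted p = 0.011) and 0.03 under total count scaling. Cox4i2 was lower (-0.38 ± 0.14, adjusted p = 0.031) at a low level, from 3.87, 5.22 and 6.93 to 2.84, 3.95 and 5.71. Its call ended under total count scaling (-0.25), and at -0.35 to -0.33 without replicate 2 of the Tg saline males, replicates 4 and 5 of the Tg saline females or replicate 1 of the WT saline females, each alone. The remaining members of complex IV, among them Cox5a, Cox5b, Cox6b1, Cox6c, Cox7b, Cox7c and Cox7a2l (a factor of supercomplex assembly), had values from -0.04 to 0.16 that did not pass.

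The promoters of these partner genes are shown, apart from that of Cox6a2, which had no sequence. They differ in the number of CG pairs more than in the share of G and C bases. That share was 52.8% for Cox8a, 54.8% for Cox7a2, 62.8% for Cox6a1, 47.2% for Cox8b and 51.2% for Cox7a1. Whether these sequences bear on the levels was not tested. Each sequence holds the 250 bases before the start site in RefSeq (GRCm38.p6), 5′ to 3′ on the strand of the gene. Capitals mark a match on either strand to the motif cores searched: GCATGCGC (NRF1), CCGGAAG (ETS), CAAGGTCA (ERR), AAGATGGC (YY1), the E-box CAGCTG, or CCAAT (read as ATTGG on the other strand). Cox8a lies at chr19:7217617-7217866 (minus strand), Cox8b at chr7:140900447-140900696 (minus), Cox7a2 at chr9:79759854-79760103 (minus), Cox7a1 at chr7:30183921-30184170 (plus) and Cox6a1 at chr5:115348959-115349208 (minus).
Cox8a promoter: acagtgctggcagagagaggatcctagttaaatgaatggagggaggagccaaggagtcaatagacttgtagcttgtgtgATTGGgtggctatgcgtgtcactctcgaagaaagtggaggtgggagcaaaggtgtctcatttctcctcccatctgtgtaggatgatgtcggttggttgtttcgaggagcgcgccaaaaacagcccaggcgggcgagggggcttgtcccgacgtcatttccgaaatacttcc
Cox8b promoter: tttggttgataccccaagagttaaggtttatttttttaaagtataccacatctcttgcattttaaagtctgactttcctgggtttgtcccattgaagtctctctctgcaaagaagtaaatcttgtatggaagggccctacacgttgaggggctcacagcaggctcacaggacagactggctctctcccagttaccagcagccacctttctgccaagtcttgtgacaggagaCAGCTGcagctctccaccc
Cox7a2 promoter: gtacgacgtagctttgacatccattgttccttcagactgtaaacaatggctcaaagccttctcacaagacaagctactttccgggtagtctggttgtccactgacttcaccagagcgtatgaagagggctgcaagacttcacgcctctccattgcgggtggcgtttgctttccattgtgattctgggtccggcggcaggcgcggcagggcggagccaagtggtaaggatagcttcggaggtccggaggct
Cox7a1 promoter: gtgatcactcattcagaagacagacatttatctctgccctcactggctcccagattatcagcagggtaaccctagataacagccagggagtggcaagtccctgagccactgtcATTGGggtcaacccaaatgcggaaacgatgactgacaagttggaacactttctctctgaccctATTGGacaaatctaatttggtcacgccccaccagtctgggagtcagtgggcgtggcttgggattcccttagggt
Cox6a1 promoter: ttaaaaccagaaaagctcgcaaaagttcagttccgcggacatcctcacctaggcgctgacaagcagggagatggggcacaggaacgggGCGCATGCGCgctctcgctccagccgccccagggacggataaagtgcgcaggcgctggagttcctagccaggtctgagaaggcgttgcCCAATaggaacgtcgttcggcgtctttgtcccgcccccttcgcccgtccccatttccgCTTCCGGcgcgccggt

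The widespread forms held 11 (Cox8a), 14 (Cox7a2) and 26 (Cox6a1) CG pairs in these windows, and the striated muscle forms 1 (Cox8b) and 4 (Cox7a1). The median was 14 over the 34 members with a sequence and 16 over 8453 tested genes. Cox6a1 held an NRF1 core, an ETS core and a CCAAT box. The NRF1 core was in 5 of 34 member promoters (14.7%) and 4.77% of all. The ETS core was in 8 (23.5%) and 14.5%, and the CCAAT box in 18 (52.9%) and 36.2%. Cox8a and Cox7a1 held a CCAAT box, Cox8b an E-box core (2 of 34 members, 5.88%, and 11.7% of all), and Cox7a2 none of the 6 motifs. None of the 6 motifs contains the letters of another, and a match is a description of the sequence, not evidence of a bound site. The ERR core was in only 2 of 34 member promoters (5.88%) and 0.899% of all, and the YY1 core in 0 members and 2.09% of all. Not matched in the table were Cox4i1, Uqcrq, Uqcrc2, Cox6a2, Sdhc, Cox6c2, Atp5mpl, Uqcrb, Cox4i2, Atp5a1, Cyc1 and Cox6c.

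Because both forms of a subunit are read in the same library, their ratio does not depend on how libraries were scaled. In 3 complex IV pairs the widespread form gained on the striated muscle form in Tg hearts. The ratio of Cox8a to Cox8b (FPKM + 0.1 each) was 0.283, 0.318 and 0.378 (lowest, median, highest) in WT saline, 0.307, 0.389 and 0.552 in WT Ang II, 0.307, 0.542 and 0.751 in Tg saline and 0.481, 0.659 and 0.830 in Tg Ang II. Under saline 11 of 12 Tg libraries were above all 11 WT libraries, and the exception was library 965. The log2 difference was 0.75 under saline (adjusted p = 0.00037, 0.81 without library 965) and 0.73 under Ang II (adjusted p = 0.00028), by two-sided permutation tests within sex with 100000 resamples, adjusted over 28 tests. The smallest p these permutations can give is 1e-05. Under Ang II 11 of 13 Tg libraries were above all 14 WT libraries.

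The ratio of Cox7a2 to Cox7a1 was 0.625, 0.754 and 0.876 in WT saline, 0.718, 0.897 and 1.45 in WT Ang II, 0.486, 0.993 and 1.3 in Tg saline and 1.08, 1.32 and 1.57 in Tg Ang II. Thus the striated muscle form had the higher FPKM in every WT saline library and the widespread form in every Tg Ang II library. Which form is ahead in FPKM rests on the transcript length given to each gene, which was not checked. By the same permutation tests Tg was above WT by 0.41 under saline (adjusted p = 0.0087) and 0.50 under Ang II (adjusted p = 0.00037). Ang II raised the ratio by 0.28 in WT (adjusted p = 0.0071) and by 0.38 in Tg (adjusted p = 0.0028). The highest WT Ang II library was 329 at 1.45, and the lowest Tg saline library was 965 at 0.486. Without libraries 329 and 847 the rise in WT was 0.23 (adjusted p = 0.0095), and without library 965 the genotype difference under saline was 0.49 and the rise in Tg 0.29 (adjusted p = 0.0035). Cox6a1 was a small share of its pair: its ratio to Cox6a2 had medians of 0.0430, 0.0515, 0.0573 and 0.0695 in the same order of groups. By permutation test, Tg was above WT by 0.34 under saline (adjusted p = 0.015) and 0.39 under Ang II (adjusted p = 0.002).

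Ang II itself moved the ratio of Cox8a to Cox8b by 0.27 in WT hearts (adjusted p = 0.0087, permutation test), with 9 of 14 Ang II libraries above every saline library, and by 0.25 in Tg hearts (adjusted p = 0.054), which did not pass. The latter passed at 0.25 to 0.30 when any of 7 libraries was left out alone (replicates 1 and 2 of the Tg saline females, 2 of the Tg saline males, 2 and 5 of the Tg Ang II females, 2 of the Tg Ang II males, and replicate 5 of the WT Ang II females through the adjustment), and it was 0.19 without library 965. For Cox6a1 to Cox6a2 the rises of 0.22 in WT (adjusted p = 0.042, permutation test) and 0.26 in Tg (adjusted p = 0.046) were near the threshold and are weak: they were lost without libraries 329 and 847, at 0.20 and 0.25, and on leaving out any of 11 libraries alone in WT (0.18 to 0.22) and any of 20 in Tg (0.19 to 0.27). Of the 3 genes for the c subunit of the ATP synthase, whose mature proteins are the same, the ratio of Atp5g2 to Atp5g1 was higher by 0.14 in Tg than in WT saline hearts (adjusted p = 0.0071, permutation test) and fell by 0.15 under Ang II in Tg hearts (adjusted p = 0.0071). The ratio of Atp5g3 to Atp5g1 differed by 0.03 between genotypes under saline (adjusted p = 0.71) and by -0.01 without library 965, and Ang II lowered it by 0.13 in each genotype (adjusted p = 0.018 in WT and 0.022 in Tg). The latter call ended without library 847, at -0.11. Cox4i2 to Cox4i1 was at -0.27 under saline (adjusted p = 0.061) and passed in none of the 4 comparisons with all libraries. Under saline it passed at -0.33 to -0.30 without replicates 3 or 6 of the Tg saline females, 5 of the Tg saline males or 6 of the WT saline males. Cox6b2, a form known from testis, was near 0 in all groups (mean 0.459 scaled FPKM in WT saline and 0.204 in Tg saline), and its log2 ratio to Cox6b1, at -0.99 in Tg saline against WT saline hearts (adjusted p = 0.0028, permutation test), rests on few fragments.

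**Figure D3:**
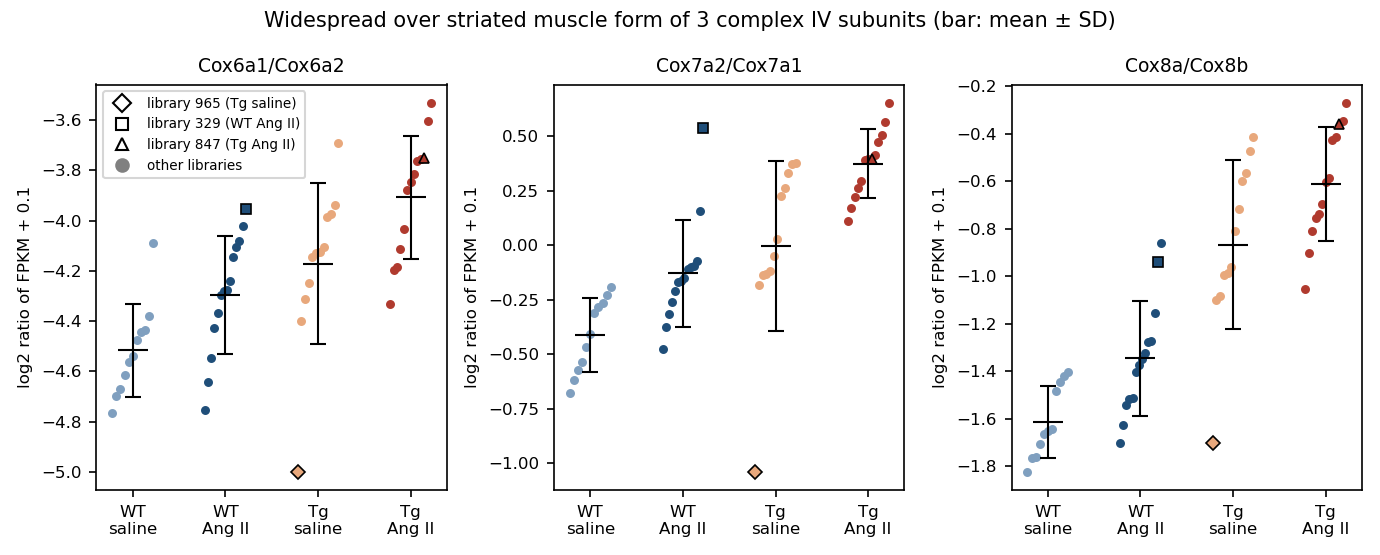
Log2 ratio of the widespread over the striated muscle form (FPKM + 0.1) in every library for 3 complex IV subunits in the 4 groups, with mean ± SD as bars. The Tg mean lies above the WT mean under each treatment in each panel, and library 965 is the lowest Tg saline library in each, at a Cox8a to Cox8b ratio of 0.307.

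Ang II in WT hearts changed few members: 4 were lower and 1 was higher, where 8.87% of all genes were lower and 9.71% higher. The median over the 46 was -0.01. The 4 that fell were Sdha, Sdhc, Uqcrc1 and Atp5a1, none of them in complex IV. Sdha went from a median of 265 to 178, 214 and 244 scaled FPKM (-0.28 ± 0.05, adjusted p = 8.4e-05), so its level under Ang II in WT was near that of Tg saline hearts, at 211. Sdhc went from 95.3 to 66.5, 82.7 and 88.9 (-0.25 ± 0.05, adjusted p = 0.00011) and Uqcrc1 from 180 to 135, 162 and 183 (-0.20 ± 0.05, adjusted p = 0.0017). The groups overlapped in all 46 members. Atp5a1 fell by 0.15 (SE 0.04, adjusted p = 0.007), and its call ended under total count scaling at -0.09. Cox8a rose from 43.7 to 40.2, 50.3 and 80.6 (0.30 ± 0.10, adjusted p = 0.033). Its call was lost without libraries 329 and 847 (0.24, adjusted p = 0.086). It was also lost, at 0.24 to 0.29, without any of replicates 3 and 7 of the WT Ang II females, replicate 5 of the WT Ang II males (library 329), replicates 3 and 4 of the WT saline females and replicates 4 and 5 of the WT saline males. Under total count scaling 2 members were higher and 3 lower. Without replicate 1 of the WT saline females, 3 of the WT saline males, 4 of the WT Ang II females, 3 or 7 of the WT Ang II males or library 965, 2 were higher.

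In Tg hearts Ang II lowered 4 members and raised 0 in edgeR, where 4.04% of all genes were lower and 4.88% higher. No member was raised by DESeq2 or limma-trend either, and 16 members in all had an unadjusted p under 0.05. The median of the 46 was -0.14, and 1 member had a positive value, but without library 965 the median was -0.04 and 12 were positive. Sdha went from a median of 211 in Tg saline to 165, 187 and 209 (-0.17 ± 0.05, adjusted p = 0.021) and Sdhc from 82.3 to 62.5, 71.5 and 79.1 (-0.18 ± 0.05, adjusted p = 0.011). Both values were the same to 2 decimals without library 965, while the call on Sdha ended without the filter on low values (-0.16, adjusted p = 0.086) and without libraries 329, 847 and 965 together (-0.15, adjusted p = 0.054). Cox7a1 fell by 0.54 (SE 0.13, adjusted p = 0.0074), from a median of 94.7 to 60.3, 76.4 and 90.9, and by 0.29 without library 965. With a block for runs of neighbouring library numbers, whose meaning the labels do not give, it was at -0.32 (adjusted p = 0.14) and was not called. Atp5k, the small e subunit of the ATP synthase, was called lower at -0.58 ± 0.17 (adjusted p = 0.025), but library 965 was at 249 where the other Tg saline libraries ended at 52.3. Without it the value was -0.18 (adjusted p = 0.13) and Atp5k was not called. The count of 4 rose to 10 without replicate 2 and to 7 without replicate 4 of the Tg saline males.

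Whether the response to Ang II differed between genotypes was tested with an interaction term. In edgeR 0 of 46 members passed, and 0.043% of all genes did. DESeq2 and limma-trend also called 0, and 5 members had an unadjusted p under 0.05. The smallest was that of Cox8a, at -0.35 ± 0.14 (adjusted p = 0.42), or -0.24 without library 965. For complex II, where Ang II lowered Sdha and Sdhc in each genotype, the median difference of the responses was 0.03. For complex IV it was -0.23, and -0.06 without library 965.

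Under Ang II, 19 members were lower and 1 higher in Tg than in WT hearts, beside 16.4% of all genes in each direction, so the share of lower members was above the background. Each complex had a negative median: -0.19 for complex II, -0.16 for III, -0.14 for IV and -0.17 for V. Under total count scaling, where all genes moved to 0.08, the medians were -0.10, -0.08, -0.05 and -0.08, and 8 members were lower and 3 higher. Without library 965 the counts were 22 lower and 2 higher, since the estimate of spread is shared by all groups, and without libraries 329 and 847 they were 16 and 2. The count of higher members was 2 as well without replicate 3 of the WT Ang II females, 4 or 5 of the WT Ang II males, 5 or 6 of the Tg Ang II females or 2 of the Tg Ang II males. The groups overlapped in all 46 members. All 20 called members had the same sign in females and males, though these calls too rest on the mean over both sexes.

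The members lower in Tg under Ang II included Sdha, Sdhb and Sdhc and the core and electron-carrying subunits of complex III, and the values are given beside those under saline (the 2 comparisons share no library, and all 4 two-group comparisons share the estimate of spread). In complex II, Sdha was at -0.20 (adjusted p = 0.0011), Sdhb at -0.22 (adjusted p = 0.00013) and Sdhc at -0.18 (adjusted p = 0.00097), against -0.30, -0.21 and -0.26 under saline. Sdhb had 148, 167 and 201 scaled FPKM in WT Ang II and 132, 145 and 164 in Tg Ang II hearts. Sdhd was at 0.06 and did not pass. In complex III, Uqcrc1 was at -0.24 (adjusted p = 3.0e-05, from 135, 162 and 183 to 117, 134 and 154), Uqcrfs1 at -0.22 (adjusted p = 8.0e-05) and Cyc1 at -0.16 (adjusted p = 0.00027). Uqcrc2 fell by 0.11 (adjusted p = 0.009). The small subunit Uqcrq, which binds ubiquinone, was at -0.27 (adjusted p = 0.024), and its call ended without replicate 4 of the WT Ang II males (-0.24, adjusted p = 0.052) and without libraries 329 and 847 (adjusted p = 0.059).

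In complex IV under Ang II, Cox8a was the member called higher and 3 were called lower, beside 16.4% of all genes each way. Cox8a was at 40.2, 50.3 and 80.6 scaled FPKM in WT and 62.0, 71.7 and 92.3 in Tg (0.42 ± 0.10, adjusted p = 0.0006). Cox7a1 was at 74.9, 100 and 141 in WT and 60.3, 76.4 and 90.9 in Tg (-0.44 ± 0.13, adjusted p = 0.0071), a fall in a comparison that holds no sample of library 965's group. Cox4i1 fell by 0.25 (adjusted p = 0.0061), from 363, 412 and 512 to 285, 347 and 410, and Cox4i2 by 0.40 (adjusted p = 0.017). The calls on Cox4i1 (-0.17) and Cox4i2 (-0.31) ended under total count scaling, and that on Cox4i2 also with the block for runs of library numbers (-0.39, adjusted p = 0.056). Cox6a1 (0.22 ± 0.09, adjusted p = 0.066), Cox8b (-0.29 ± 0.13, adjusted p = 0.081), Cox7a2 (0.05) and Cox6a2 (-0.16) did not pass.

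In complex V under Ang II, 8 of 17 members were lower, beside 16.4% of all genes. Atp5c1 was at -0.20 (adjusted p = 0.00018, from 262, 320 and 359 to 246, 281 and 310), Atp5b at -0.15 (adjusted p = 0.00048) and Atp5a1 at -0.14 (adjusted p = 0.0042). Atp5g1 was at -0.24 (adjusted p = 0.0016) and Atp5pb at -0.12 (adjusted p = 0.0091). Atp5h and Atp5o, the stalk subunits d and OSCP, were named after their values were seen, at -0.25 and -0.19. Both calls ended under total count scaling, and that on Atp5o without libraries 329 and 847 (-0.15). Atp5g2 was at -0.17 (adjusted p = 0.045), and that call is weak: it ended on leaving out any of 15 libraries of the 27 in these groups, with values of -0.17 to -0.14, without libraries 329 and 847 (-0.15) and under total count scaling (-0.08). These 15 were replicates 2, 4, 5 and 6 of the WT Ang II females, 4, 5, 6 and 7 of the WT Ang II males, 3, 6 and 7 of the Tg Ang II females and 3, 4, 5 and 6 of the Tg Ang II males. The calls on Atp5a1 (-0.05), Atp5b (-0.06) and Atp5pb (-0.03) ended under total count scaling, and those on Atp5c1 and Atp5g1 held.

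**Figure D4:**
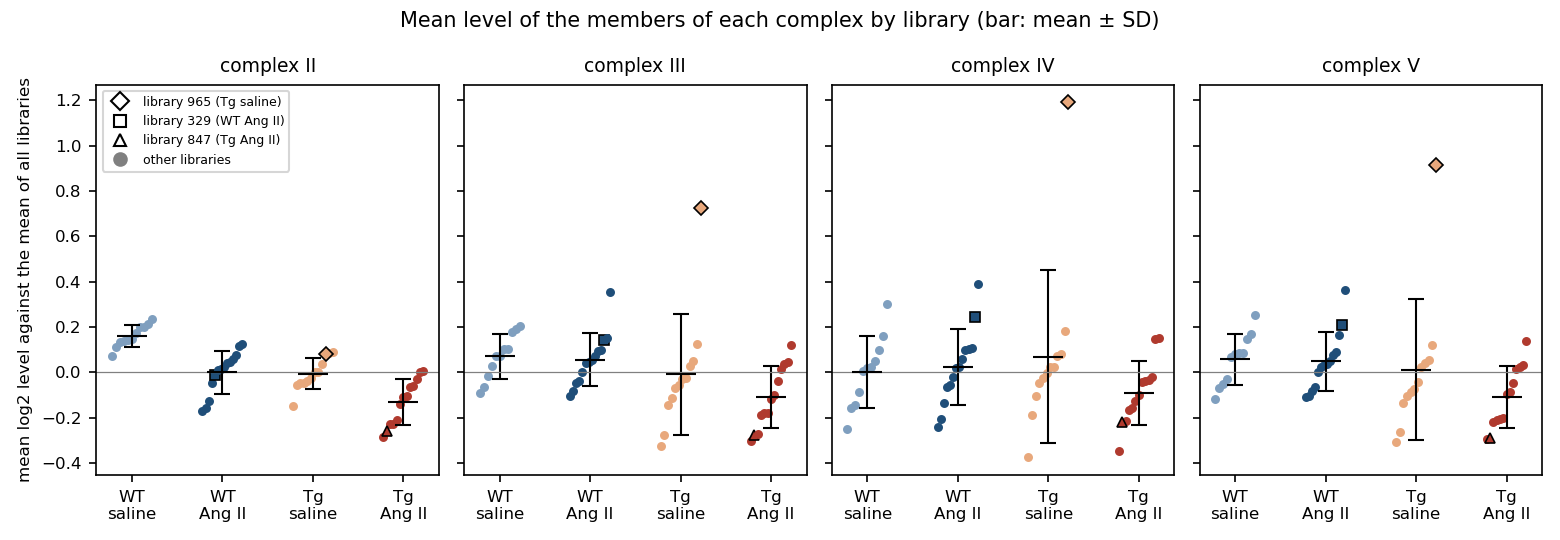
Mean log2 level of the members of each complex in every library, against the mean of all libraries, in the 4 groups with mean ± SD as bars. Complex II steps down from 0.16 in WT saline to -0.13 in Tg Ang II, and library 965 stands at 1.19 in complex IV but at 0.08 in complex II.

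As a mean over its members, complex II was at 0.16 ± 0.05 (SD, n = 11) on the log2 scale in WT saline, 0.00 ± 0.09 in WT Ang II hearts (n = 14), -0.01 ± 0.07 in Tg saline hearts (n = 12) and -0.13 ± 0.10 in Tg Ang II hearts (n = 13). Library 965 stood within the Tg saline range there. For complex V the means were 0.06 ± 0.11, 0.05 ± 0.13, 0.01 ± 0.31 and -0.11 ± 0.14, and the Tg saline mean was -0.07 ± 0.13 without library 965. For complex IV they were 0.00 ± 0.16, 0.02 ± 0.17, 0.07 ± 0.38 and -0.09 ± 0.14, with Tg saline at -0.03 ± 0.15 without that library. The 46 members held a mean of 1.17% of each library's summed FPKM in WT saline and 1.23% in WT Ang II. The means were 1.28% in Tg saline (1.24% without library 965) and 1.22% in Tg Ang II. The summed FPKM includes the transcripts of mitochondrial DNA, such as mt-Co1, which was lower in Tg saline than in WT saline hearts.

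Sex was called in 0 members by edgeR, DESeq2 and limma-trend, where 4.42% of all genes passed, and 11 members had an unadjusted p under 0.05. The median female minus male difference was -0.10, and -0.04 without library 965, a male. Averaged over saline and Ang II, the genotype effect differed between the sexes in 0 members (0 at an unadjusted p under 0.05, and 0% of all genes called). The Ang II effect, averaged over genotypes, also differed in 0 members (1 at an unadjusted p under 0.05, and 0% of all genes called). DESeq2 and limma-trend called 0 in both. Sdha fell by 0.29 in females and 0.31 in males between genotypes under saline, and Cox8a rose by 0.72 and 0.84. Members not called in that comparison were negative in females and positive in males, as given above. A sex difference under saline alone was not tested.

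Library 965 was not evenly high. Over the other Tg saline males it was higher by a median of 0.87 on the log2 scale, from -0.15 for Uqcrc2 to 2.44 for Atp5k. It was the highest of all libraries in 15 of 16 complex IV members, 11 of 17 of complex V, 5 of 9 of complex III and 0 of 4 of complex II. The excess moved with transcript length: it was 1.43 in the 22 members of up to 750 bases, beside 0.46 in all tested genes of that length, and 0.16 in the 13 members of 1001 to 2000 bases, beside 0.13. Cytosolic ribosomal protein genes, which are short as well, stood at 0.90 in this library against the mean of all libraries, and complex I subunits at 0.83. Its total count, 55394856, was within the range of the series. Its median-of-ratios factor was 0.776 from FPKM, the lowest of the series, but 0.932 from counts. In library 778, the next lowest from FPKM, they were 0.863 and 0.856. Whether length or another property of this library bears on these values was not tested.

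The genotype difference under saline also ran with length among the members. Length, here and above, is that of a gene's longest protein-coding or processed pseudogene transcript in GENCODE M21. It is long for some small subunits, at 4715 bases for Atp5g1, 2733 for Atp5md and 1521 for Uqcrq. Spearman's correlation between transcript length and log2 fold change was -0.64 over the 46 members, -0.46 without library 965 and -0.12 over all tested genes with a length. It is across genes of the same libraries, which are not independent. The members of up to 750 bases had a median of 0.13 (4 called higher and 1 lower), or -0.09 without library 965, and those of 1001 to 2000 bases had -0.18 (1 higher and 8 lower) with and without it. For the genotype difference under Ang II the correlation was -0.12, for Ang II in WT -0.34, and for Ang II in Tg 0.51, or 0.04 without library 965.

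**Figure D5:**
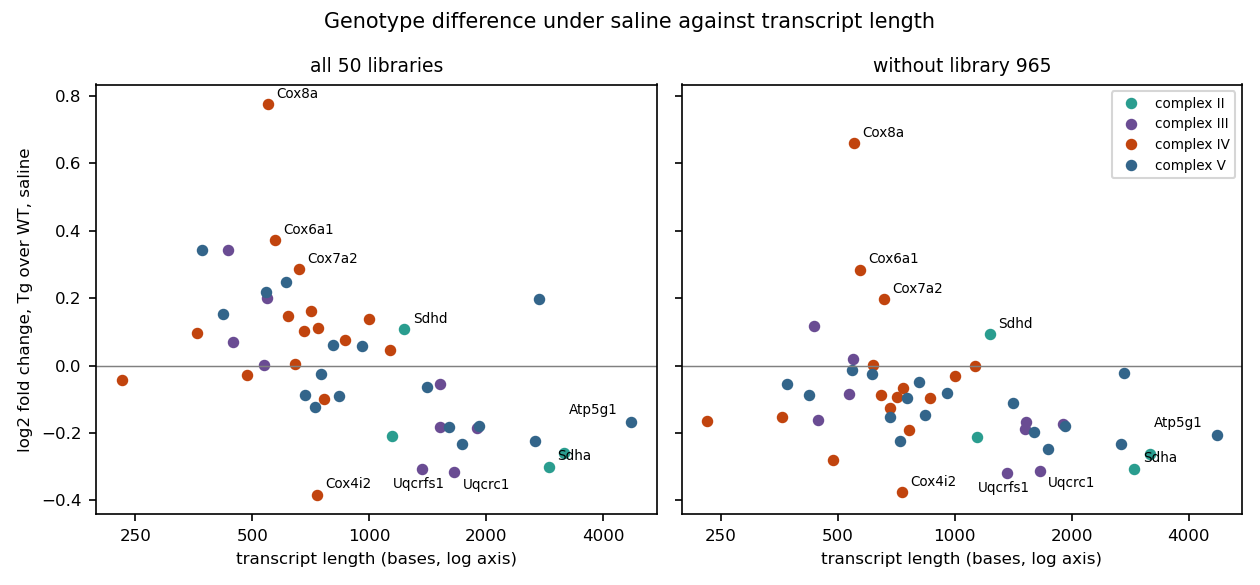
Log2 fold change of Tg over WT under saline against transcript length (log axis) for the 46 members, with all libraries and without library 965. Short members lie higher with library 965 than without it, and Cox8a stands above all others in both panels, at 0.78 and 0.66.

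Among the other genes of the same pathway, 12 of the 17 electron carriers and genes of ubiquinone synthesis fell under saline between genotypes and 1 rose, with a median of -0.24. Of all genes, 20.2% were lower and 20.4% higher in this comparison, as given above, and the counts that follow are read beside those shares. Etfb and Etfa, the subunits of the flavoprotein that brings electrons from fatty acid oxidation to the chain, were at -0.55 ± 0.07 and -0.38 ± 0.05. Etfb was at a mean of 280 scaled FPKM in WT saline and 192 in Tg saline. Coq3, an enzyme of ubiquinone synthesis, was at -0.40 ± 0.06. Under Ang II 12 of 17 were lower and 1 higher in Tg hearts (16.4% of all genes each way), with Etfb at -0.51 ± 0.06, Coq2 at -0.27 ± 0.04 and Coq9 at -0.25 ± 0.04. Ang II lowered 6 and raised 1 in WT hearts (8.87% and 9.71% of all genes), with Etfa at -0.21 ± 0.05, and lowered 1, Coq8a, in Tg hearts (-0.32 ± 0.05, where 4.04% of all genes were lower).

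The subunits of complexes III to V that mitochondrial DNA encodes fell as well, 6 of 6 under saline in Tg hearts (median -0.24) and 4 of 6 under Ang II (median -0.17, beside 16.4% of all genes). mt-Co1, the catalytic subunit of complex IV, went from a mean of 79152 to 62171 scaled FPKM under saline (-0.34 ± 0.06, adjusted p = 4.2e-06), mt-Co3 was at -0.26 ± 0.05 and mt-Co2 at -0.25 ± 0.06. Of 39 assembly factors of complexes II to V, 12 were lower and 4 higher under saline, beside 20.2% and 20.4% of all genes. Ttc19, a complex III factor, was at -0.37 ± 0.05 and Atpaf1, a complex V factor, at -0.32 ± 0.05, while Cox19, a copper factor of complex IV, rose by 0.80 ± 0.09 (a median of 5.70 scaled FPKM in WT and 10.1 in Tg). Cox19 was also higher with Ang II in WT hearts (0.41 ± 0.08) and in Tg over WT under Ang II (0.55 ± 0.08). Of 7 genes of ATP export and phosphate import, 4 were lower and 1 higher under saline: Slc25a3, the phosphate carrier, was at -0.33 ± 0.05, Ckmt2, the mitochondrial creatine kinase, at -0.35 ± 0.06 and Slc25a5, a widespread ADP/ATP carrier, at 0.41 ± 0.06. Of 15 regulators of respiratory genes, 3 were lower and 0 higher under saline in edgeR, a share of lower genes near that of all genes: Tfb2m (-0.25 ± 0.05), Gabpb1 (-0.27 ± 0.07) and Gabpa (-0.15 ± 0.04). The last pair, subunits of an ETS factor, lost their calls under total count scaling. Of the 40 complex I subunits, 10 were lower and 1 higher under saline, and 20 were lower and 0 higher without library 965.

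Markers of other cell types moved with the genotype. Under saline 10 of 10 fibroblast markers were higher in Tg hearts (median 0.69) and 8 of 9 macrophage markers (0.80), while 9 of 10 endothelial markers were lower (-0.41). Of 10 macrophage markers listed, 9 passed the FPKM filter. Of 10 cardiomyocyte markers, 6 were lower and 1 higher (-0.19), and of 10 mural markers 6 were lower and 3 higher (-0.30), where 20.2% of all genes were lower and 20.4% higher. Between genotypes under Ang II, 10 of 10 endothelial markers were lower (-0.33), 7 of 10 fibroblast (0.40) and 6 of 9 macrophage markers (0.35) were higher, 6 of 10 cardiomyocyte markers were lower and 1 was higher (-0.17), and 5 of 10 mural markers were lower and 3 higher (-0.16), beside 16.4% of all genes each way. The summed level of the cardiomyocyte markers had medians of 17471 scaled FPKM in WT saline (16772 to 20140), 17513 in WT Ang II (15997 to 19550), 16523 in Tg saline (15346 to 18896) and 15902 in Tg Ang II (14901 to 19384). That of the fibroblast markers was 414 (386 to 503), 420 (302 to 480), 600 (496 to 752) and 507 (335 to 658). The 5 atrial markers, which include the stress gene Nppa, summed to a median of 118 in WT saline (90.2 to 203) and 1010 in Tg saline (515 to 2068). Only 1 of the 5 passed the FPKM filter (log2 fold change 3.07 under saline), so these medians are in the main those of 1 gene. The part of cell composition in the members' values was not tested. Genes named as copies are listed beside some members. Cox5b-ps was at a mean of 25.7 scaled FPKM over all libraries, Atp5pb-ps at 9.33, Atp5l2-ps at 6.28 and Atp5k-ps2 at 2.60. Reads of Cox5b, Atp5pb, Atp5l, Atp5k, Cox6c and Cox6c2 could thus be split by the counting.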

How the data were processed

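Poly(A) RNA of 50 left ventricles was sequenced from dUTP-marked libraries of RNA with an integrity number above 7, per the labels' protocols. The submitters' processing notes name cutadapt 1.9, FastQC, HISAT2 2.0.4 and StringTie 1.3.4d. The genome build and the counting settings are not given in the sources used here. Of the gene IDs, 35599 are in GENCODE M21 (GRCm38), 91.6% at the same position.

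The authors deposited a read count and an FPKM for each gene and library, per the file headers. FPKM is scaled to transcript length and library size. Counts were tested with edgeR 4.0.16 (R 4.3.3 with limma 3.58.1 and the data.table package, 1.17.8) by the quasi-likelihood test after median-of-ratios scaling, with a mean for each group and sex and both sexes weighted equally. The genes that entered had 5 or more libraries with an FPKM of 1 or higher, a member or gene was called at a Benjamini-Hochberg adjusted p under 0.05, and errors of log2 fold changes are SE. FPKM was divided by the library's median-of-ratios factor (0.776 to 1.14) for levels. Depth bounds the precision of each count, and p-values measure the spread between hearts. Isoform ratios were compared by permutation within sex (numpy 2.4.6, pandas 2.3.3). The fits were tested on simulated data.

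The members and lists were chosen with earlier results of these data known. Genes were named by a rule: in each of the 4 two-group comparisons, the called members of each complex with the smallest p, up to 5 in each direction, both genes of every isoform pair, the 4 Sdh genes, up to 3 called genes of each other list, and Larp6. Alternatives were TMM, upper quartile and total count scaling, DESeq2 1.42.0, limma-trend on log2 FPKM with pseudocounts of 1 and 0.1, other filters, a block for runs of library numbers, and leaving out libraries. Leaving out libraries 329, 847 and 965 together was added after seeing the data. No pair of libraries of the same genotype, treatment and sex agreed within sampling noise (lowest chi-square per gene 21.2). Pairs across these groups were not compared.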

Additional observations from a re-analysis of the deposited data

Results flagged for a closer look

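In each group of 5 to 7 libraries of a sex, the highest and lowest library was set against the others by Dixon's gap test, for 39 measures and 312 groups in all. Chance gives about 1 in 20 groups a gap of this size, and 33 had one. The measures share genes and libraries, so these are not independent. Of these, 20 were library 965, replicate 6 of the Tg saline males.

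In library 965 the mean log2 level against all libraries was 0.902 over all members, 0.727 in complex III, 1.19 in complex IV and 0.914 in complex V. Its log2 ratio of Cox6a1 to Cox6a2 was -5.00 and that of Cox7a2 to Cox7a1 was -1.04, each the lowest of the Tg saline males, and that of Atp5g3 to Atp5g1 was 1.9, the highest. In complex IV it stood at 680 scaled FPKM for Cox4i1 (the other Tg saline males at 347 to 403), 60.9 for Cox6a1 (29.4 to 37.6), 1952 for Cox6a2 (567 to 627) and 629 for Cox6b1 (259 to 297). It stood at 359 for Cox7a1 (84.8 to 115), 175 for Cox7a2 (87.1 to 105), 134 for Cox8a (56.7 to 72.7) and 436 for Cox8b (108 to 145). In complex III it was at 337 for Uqcr10 (96.1 to 114) and 165 for Uqcrq (73.7 to 91.5). In complex V it was at 70.9 for Atp5g2 (43.1 to 44.1), 299 for Atp5g3 (136 to 187) and 249 for Atp5k (42.4 to 52.3).

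The other 13 values lie in 10 libraries. Replicate 5 of the WT Ang II males, library 329, was the highest of its group in the log2 ratio of Cox7a2 to Cox7a1, at 0.54 (the others at -0.48 to -0.10), and the lowest in that of Cox6b2 to Cox6b1, at -10.9 (-9.73 to -9.29). Library 487 of the Tg saline males was the lowest for the same Cox6b pair, at -11.4 (-10.1 to -9.44). Library 238 of the Tg Ang II females had the lowest log2 ratio of Cox4i2 to Cox4i1, at -7.62 (-6.68 to -5.99), and library 779 of the WT Ang II females the highest of Cox8a to Cox8b, at -0.86 (-1.52 to -1.27). Library 774 of the WT saline males was the lowest in the log2 ratio of Atp5g2 to Atp5g1, at -0.74 (-0.52 to -0.49), and in Atp5k, at 35.3 scaled FPKM (43.4 to 47.3). Library 717 of the Tg Ang II females had the lowest log2 ratio of Atp5g3 to Atp5g1, at 1.1 (1.25 to 1.35). In scaled FPKM, library 846 of the WT saline males was the lowest for Cox4i2, at 3.87 (5.06 to 5.71), and library 716 of the Tg saline females for Cox7a2, at 66.9 (97.9 to 109). Library 239 of the WT saline females was the highest for Cox6a2, at 772 (579 to 625), and for Sdhb, at 199.8 (168 to 176), and library 333 of the Tg saline females for Sdhd, at 245 (206 to 218).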

How the results depend on the processing

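The falls of Sdha, Sdhc, Uqcrc1, Uqcrfs1, Atp5a1 and Atp5c1 and the rises of Cox8a and Cox6a1 between genotypes under saline held in every setting and without any 1 of the 50 libraries. So did 3 of 5 named calls for Ang II in WT (Sdha, Sdhc, Uqcrc1), 1 of 4 in Tg (Sdhc) and 9 of 18 between genotypes under Ang II. Over the other settings, 1112 values of named genes kept direction and side of the threshold, 82 lost the call, 23 gained one and 10 turned sign. Depth limits Cox4i2, Cox6c2 and Cox6b2, whose counts were low. The cause of the changes given here was not tested, beyond the libraries or genes that a setting leaves out. No paired analysis was possible because each library number occurs once, and the block used runs of neighbouring numbers, whose meaning the labels do not give.

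Members called higher between genotypes under saline were 12 by total count, 2 with no filter on low values, 3 without library 965, 3 without libraries 329, 847 and 965 and 2 with the block, and 3 to 5 when 1 library was left out. Members called lower there were 6 by total count. Members called higher for Ang II in WT were 2 by TMM, total count, DESeq2, without library 965 and with the block, 0 with no filter and without libraries 329 and 847, and 0 to 2 when 1 library was left out. With an FPKM of at least 5 in 25 libraries, 8 were lower. For Ang II in Tg, 2 were lower with no filter, without all 3 libraries and with the block, 10 with the stricter filter, and 3 to 10 when 1 library was left out. Between genotypes under Ang II, 3 were higher by total count, with the stricter filter and without all 3 libraries, 2 without library 965, without libraries 329 and 847 and with the block, and 1 to 2 when 1 library was left out. There 8 were lower by total count. Shares of all genes called are not given for these settings, so these counts have no background beside them.

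Log2 fold changes that turned sign under saline were those of Cox4i1 (0.030), Cox7a1 (0.090), Atp5g2 (0.10) and Atp5g3 (0.0025) by total count, and Cox6a2 (-0.13) and Cox8b (-0.15) without library 965 and without all 3. The Cox8b log2 fold change, genotype under saline, was also -0.00046 with limma-trend at a pseudocount of 0.1 and -0.055 with the block. When 1 library was left out Cox6a2 ranged from -0.13 to 0.15, Cox7a1 from -0.28 to 0.029 and Cox8b from -0.15 to 0.15.

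The log2 ratio Atp5g3/Atp5g1, genotype under saline, was -0.014 without library 965 and without all 3 libraries, and -0.014 to 0.050 on leaving out 1 library. The log2 ratio Cox6a1/Cox6a2, Ang II in WT, was 0.197 without libraries 329 and 847, with or without library 965, and 0.184 to 0.269 on leaving out 1. The log2 ratio Cox6b2/Cox6b1, Ang II in WT, was -0.497 without libraries 329 and 847, with or without library 965, and -0.680 to -0.497 on leaving out 1. The log2 ratio Cox4i2/Cox4i1, Ang II in Tg, was -0.075 without library 965, -0.070 without all 3, and -0.075 to 0.085 on leaving out 1. The log2 ratio Cox6a1/Cox6a2, Ang II in Tg, was 0.193 without library 965, 0.252 without libraries 329 and 847, 0.180 without all 3, and 0.193 to 0.310 on leaving out 1. The log2 ratio Atp5g3/Atp5g1, Ang II in Tg, was -0.113 without libraries 329 and 847, -0.071 without all 3, and -0.147 to -0.085 on leaving out 1. The log2 ratio Cox6b2/Cox6b1, genotype under Ang II, was -0.466 without libraries 329 and 847, with or without library 965, and -0.440 to -0.271 on leaving out 1. Leaving out 1 library also gave ranges of -0.330 to -0.197 for the log2 ratio Cox4i2/Cox4i1, genotype under saline, of -0.103 to -0.070 for the log2 ratio Atp5g2/Atp5g1, Ang II in WT, of -0.080 to 0.129 for the log2 ratio Cox6b2/Cox6b1, Ang II in Tg, of 0.190 to 0.304 for the log2 ratio Cox8a/Cox8b, Ang II in Tg, and of 0.057 to 0.088 for the log2 ratio Atp5g2/Atp5g1, genotype under Ang II.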
